A study of Mus musculus with 6 samples.

Results

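The genes described here are 10 regulators of the G1 phase of the cell cycle: the D-type cyclins Ccnd1, Ccnd2 and Ccnd3, the E-type cyclins Ccne1 and Ccne2, their kinases Cdk4, Cdk6 and Cdk2, and the Kip family inhibitors Cdkn1b (p27) and Cdkn1c (p57). They were chosen by name from 38828 genes and unmatched rows in the counts, and 7 of them, with 11616 genes in all, passed the filter on low counts. Total RNA was sequenced from Hepa1-6, a mouse hepatoma line kept in high-glucose medium with serum. The Crebl2 siRNA group (3 libraries) had been transfected for 3 days with siRNA against Crebl2, a bZIP protein related to the CREB factors. The Luc siRNA group (3 libraries) had received siRNA against Renilla luciferase, which mouse cells lack, with the same lipid reagent. The cells are 1 tumour line, the labels do not say how many siRNA sequences were used, and no label ties a library to a culture of its own. The p-values therefore reflect the spread among these libraries only, which may be technical.

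Growth signals raise the D-type cyclins, which bind CDK4 and CDK6 and start the phosphorylation of the retinoblastoma protein. E2F factors are then freed to transcribe cyclin E and the genes of DNA synthesis, and cyclin E with CDK2 completes the step into S phase. Proteins p27 and p57 bind cyclin-CDK complexes and block CDK2, and p27 is controlled largely at the level of the protein, which RNA counts do not measure. In liver, cyclin D1 is the D-type cyclin best known for driving hepatocytes into the cycle after injury.

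Total counts per library ran from 27082572 to 27710914 in the Crebl2 siRNA group and from 27385328 to 29158489 in the Luc siRNA group. Crebl2 itself had 813, 826 and 896 counts after Crebl2 siRNA, against 3248, 3162 and 3041 after Luc siRNA (log2 fold change -1.90, SE 0.0582, edgeR adjusted p = 2.83e-12). The mitochondrial share was 2.23, 0.859 and 2.09% in Crebl2 siRNA replicates 1 to 3 and 2.31 to 2.52% in the Luc siRNA libraries, so Crebl2 siRNA replicate 2 stood apart, and a call that was lost without it is named as such below. Of 11 hepatocyte and hepatoma markers 5 passed the filter. Albumin (Alb) had 540 ± 29.5 CPM after Crebl2 siRNA and 581 ± 29.2 after Luc siRNA, and the oncofetal Afp 357 ± 5.29 and 278 ± 1.21 (SD, n = 3 each; CPM, counts per 1000000 with TMM-scaled library sizes), while transferrin (Trf) fell by 0.42 on the log2 scale. Ttr, Apoa1 and Apob had 6 to 54 counts per group and Serpina1a, Serpina1b and Hnf4a had 0. Over all its rows Hnf4a has only 6 exonic bases shared with no other deposited transcript. Its 0 counts therefore do not show that it was silent. Summed CPM of 6 cholangiocyte and mesothelial markers, of which 2 rose (Krt19 and Sox9, the second not called without Luc siRNA replicate 1 or 2) and 3 fell (Msln, Upk3b and Krt7), ran from 680 to 738 after Crebl2 siRNA and from 758 to 842 after Luc siRNA. That of 6 fibroblast markers, nearly all from Dcn with Col3a1 and Pdgfrb at 0, ran from 119 to 131 after Crebl2 siRNA and from 176 to 182 after Luc siRNA. Endothelial and immune markers summed to at most 0.144 and 1.07 CPM in any library, the second nearly all Cd68, with Tek and Ptprc at 0. Exonic bases shared with no other deposited transcript number 48 in Tek, 126 in Pdgfrb and 429 in Ptprc over all rows. The 0 counts of these genes therefore do not show that they were silent. The part of these marker levels in the results below was not tested, and in bulk RNA fewer cells of a type and less RNA per cell cannot be told apart.

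The promoter windows of the members that changed, and that of Cdk4 for its E-boxes, are shown because Crebl2 is kin to factors that bind the cyclic AMP response element (CRE) and because E2F and Myc are the textbook activators of these genes. Each runs from 250 bases before to 50 after a RefSeq gene start (GRCm38.p6), 5′ to 3′ on the gene's strand. Of the 10 members, Ccnd3, Ccne1, Cdk2, Cdk4, Cdk6 and Cdkn1b have such windows, and Ccnd1, Ccnd2, Ccne2 and Cdkn1c do not. Capitals mark the CRE core TGACG, the full CRE TGACGTCA (which holds that core), the E2F forms TTTCCCGC and TTTGGCGC, and the E-box CACGTG, each searched on both strands; GC boxes are in lower case. The windows lie at chr7:38107441-38107740 (minus strand) for Ccne1, chr6:134920151-134920450 (plus) for Cdkn1b, chr5:3343643-3343942 (plus) for Cdk6, chr10:128705002-128705301 (minus) for Cdk2 and chr10:127063285-127063584 (plus) for Cdk4.
Ccne1: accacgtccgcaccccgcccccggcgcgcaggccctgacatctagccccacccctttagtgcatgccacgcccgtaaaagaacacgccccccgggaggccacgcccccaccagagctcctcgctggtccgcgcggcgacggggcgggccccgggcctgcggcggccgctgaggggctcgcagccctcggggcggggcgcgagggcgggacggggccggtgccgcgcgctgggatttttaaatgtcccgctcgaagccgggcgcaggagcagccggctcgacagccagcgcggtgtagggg
Cdkn1b: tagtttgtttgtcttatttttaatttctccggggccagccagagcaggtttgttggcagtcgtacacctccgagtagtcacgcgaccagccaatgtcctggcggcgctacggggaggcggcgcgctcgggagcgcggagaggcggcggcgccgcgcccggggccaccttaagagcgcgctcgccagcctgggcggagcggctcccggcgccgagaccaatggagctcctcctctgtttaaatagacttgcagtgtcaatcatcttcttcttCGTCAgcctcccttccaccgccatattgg
Cdk6: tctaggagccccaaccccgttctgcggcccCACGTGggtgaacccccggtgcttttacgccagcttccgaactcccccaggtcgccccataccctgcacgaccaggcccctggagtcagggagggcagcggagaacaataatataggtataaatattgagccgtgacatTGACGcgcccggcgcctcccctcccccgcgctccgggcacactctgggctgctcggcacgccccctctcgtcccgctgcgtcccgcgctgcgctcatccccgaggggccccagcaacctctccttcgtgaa
Cdk2: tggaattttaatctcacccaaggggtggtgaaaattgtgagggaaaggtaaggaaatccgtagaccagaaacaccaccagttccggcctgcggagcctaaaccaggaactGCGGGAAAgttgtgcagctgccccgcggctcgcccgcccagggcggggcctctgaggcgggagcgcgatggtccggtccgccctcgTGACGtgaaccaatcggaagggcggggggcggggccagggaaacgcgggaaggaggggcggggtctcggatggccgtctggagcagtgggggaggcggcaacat
Cdk4: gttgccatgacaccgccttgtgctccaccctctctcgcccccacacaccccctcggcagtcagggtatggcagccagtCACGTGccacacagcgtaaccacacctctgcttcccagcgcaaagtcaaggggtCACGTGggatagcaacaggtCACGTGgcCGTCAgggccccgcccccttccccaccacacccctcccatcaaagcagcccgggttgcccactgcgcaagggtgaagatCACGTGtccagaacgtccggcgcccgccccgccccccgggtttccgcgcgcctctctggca

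The Ccne1 window held none of the capitalised words, but 4 GC boxes (GGGCGG), a word found in 35.7% of 32851 mouse promoter windows of this length. Cdkn1b, Cdk6, Cdk2 and Cdk4 each held the CRE core once, at 22, -81, -54 and -90 bases from the gene start, and 20.8% of windows hold it at least once. None of the 5 held the full CRE, found in 1.79% of windows. Of the E2F forms, TTTCCCGC (in 1.07% of windows) was found once, 140 bases before the start of Cdk2, and TTTGGCGC (0.514%) in none. Cdk4, known in textbooks as a Myc target, held 4 E-boxes, at -172, -118, -98 and -11, where 7.15% of windows hold at least 1 and 8 windows (0.0244%) hold 4 or more. Cdk6 held 1, at -220. A match is only a match of letters, and the letters that were not found say nothing about the factor.

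How well each member could be measured depended on its transcript models. The deposited values are counts per transcript, and the members have 25 rows, of which 12 held any count. All 8 rows without a base of their own, that is an exonic base shared with no other deposited transcript, had 0 counts. Ccne1 is the clearest case, with 1 row whose 2000 bases are all its own. Ccnd1 has 2922 own bases of 3740, the rest being shared with LTO1 on the other strand. Cdk4-201 has 698 own bases of 2053, with 641 of its bases lying opposite Tspan31. The counts of Cdkn1b come wholly from 2159 bases at the far end of the 3′ untranslated region of its long form Cdkn1b-202, and those of Cdk6 from Cdk6-202, with 8783 of 9055 own bases after the coding region and none within it. For these genes a change in the long form and a change in the gene cannot be told apart. Cdk2 (171 own bases in its main row), Ccnd3 (148), Ccne2 (191) and Cdkn1c (54) were close to invisible to this way of counting.

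**Figure D1:**
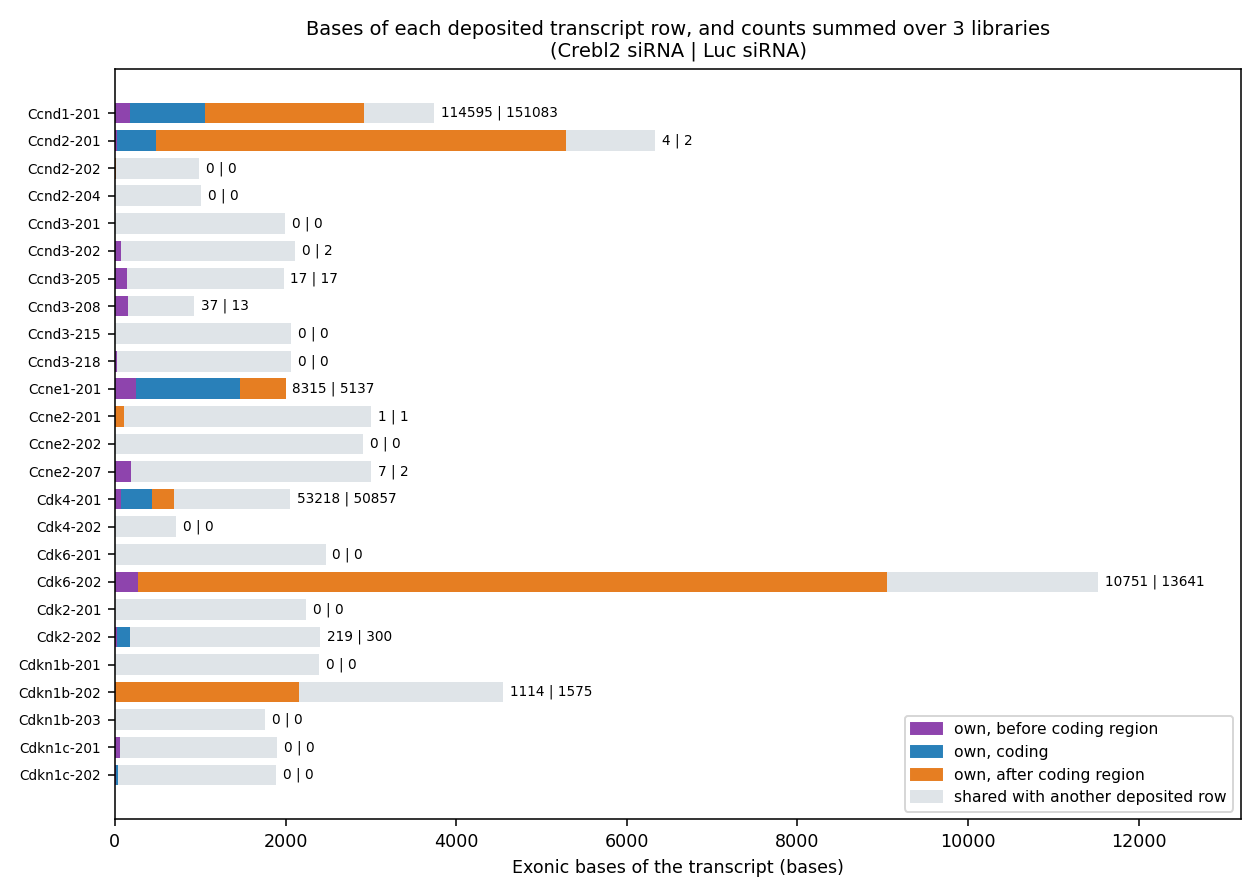
Exonic bases (x axis) of each of the 25 deposited transcript rows of the members (y axis), with bases of its own in colour by position and shared bases in grey, stacked by class and not in transcript order. The numbers give the counts summed over the 3 Crebl2 siRNA libraries and then the 3 Luc siRNA libraries; Ccnd1-201 (114595 and 151083) and Cdk4-201 (53218 and 50857) hold the most, and rows without own bases hold 0.

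Of the 7 members tested, Ccne1 rose, Ccnd1, Cdk6, Cdk2 and Cdkn1b fell, and Cdk4 and Ccnd3 did not pass the test after Crebl2 siRNA. The test was the quasi-likelihood test of edgeR with Benjamini-Hochberg adjustment over all genes, called at an adjusted p under 0.05. Among all 11616 genes tested, 38.9% were called, 18.8% as raised and 20.1% as lowered, so 5 calls in 7 members are to be read against a response that touched many genes. With library size alone as the scaling, 58.8% of calls were upward, against 48.3% with TMM. The groups did not overlap in CPM for 6 of the 7 members, and for 48.8% of all genes tested. The median log2 fold change of the 7 was -0.34, against 0.005 over all genes tested.

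**Figure D2:**
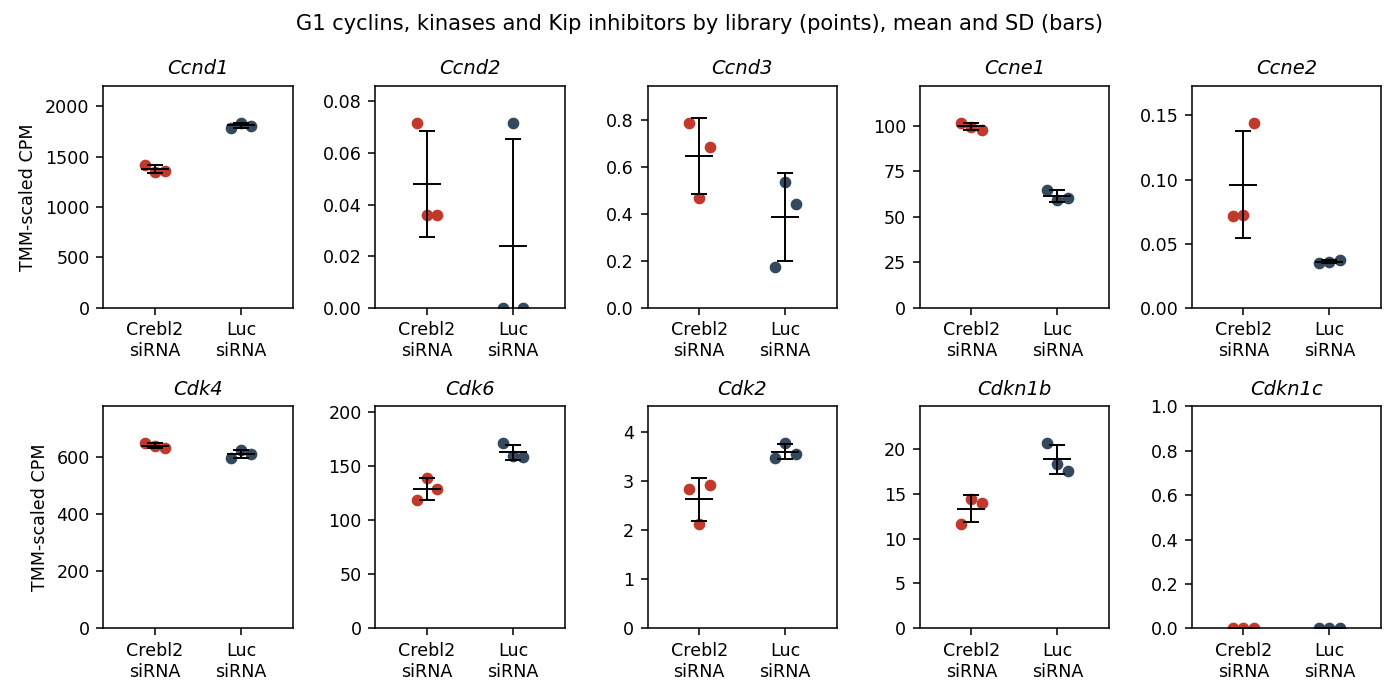
TMM-scaled CPM (y axis, from 0, its range set for each gene) in the 3 Crebl2 siRNA libraries (red) and the 3 Luc siRNA libraries (dark) for each of the 10 members, with mean and SD; bars are cut at 0. Ccnd1, Cdk6, Cdk2 and Cdkn1b lie lower and Ccne1 higher in every Crebl2 siRNA library than in any Luc siRNA library, and Cdkn1c is at 0 throughout.

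In these counts the D-type cyclins were represented almost only by Ccnd1, but Ccnd3 was close to invisible to this way of counting. Ccnd1, on chromosome 7 (144929931 to 144939925, minus strand, GRCm38), had 1420, 1348 and 1353 CPM in the Crebl2 siRNA libraries, against 1785, 1835 and 1806.5 CPM in the Luc siRNA libraries. Every Crebl2 siRNA library was below every Luc siRNA library. Its mean was 1373.5 ± 40.1 CPM after Crebl2 siRNA and 1809 ± 25.3 CPM after Luc siRNA (SD, n = 3 each). The log2 fold change was -0.40 with an SE of 0.0457 (edgeR adjusted p = 4.00e-06), or 75.9% of the Luc siRNA level. A lower log2 fold change was seen in 12.9% of tested genes. LTO1, the gene that shares bases with it on the other strand, fell by 0.23 on the log2 scale (edgeR adjusted p = 0.00466).

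Ccnd2, the cyclin D of many blood and germ cells, was close to absent although 5290 bases of its main row are its own. It had 2, 1 and 1 counts after Crebl2 siRNA and 0, 2 and 0 after Luc siRNA, too few to pass the filter. Ccnd3, whose products partner CDK6 in lymphoid cells above all, had 22, 13 and 19 counts after Crebl2 siRNA and 5, 15 and 12 after Luc siRNA. Luc siRNA replicate 1 was the lowest of the 6 libraries and the groups overlapped. The log2 fold change was 0.75 with an SE of 0.382 (edgeR adjusted p = 0.135), and 0.39 without that library. Within the gene the rows differed: Ccnd3-208 had 37 counts after Crebl2 siRNA and 13 after Luc siRNA, while Ccnd3-205 had 17 in each group. These rows are told apart by 148 and 139 bases at their 5′ ends, and the difference between them was not tested.

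Of the E-type cyclins, Ccne1 rose, with the smallest adjusted p of the 7 tested members. The gene, which encodes the CDK2 partner cyclin E1, lies on chromosome 7 (38097984 to 38107534, minus strand). It had 102, 99.4 and 97.9 CPM after Crebl2 siRNA, against 64.9, 59.1 and 60.4 CPM after Luc siRNA. All 3 Crebl2 siRNA libraries were above all 3 Luc siRNA libraries, with a gap far wider than the spread within either group. The mean was 99.7 ± 1.89 CPM after Crebl2 siRNA and 61.5 ± 3.08 CPM after Luc siRNA (SD, n = 3 each). Its log2 fold change of 0.70 had an SE of 0.0552 (edgeR adjusted p = 6.58e-08). That is 1.62-fold, and 95% of tested genes had a lower log2 fold change. Ccne2, which encodes the second E-type cyclin, had 2, 2 and 4 counts after Crebl2 siRNA and 1, 1 and 1 after Luc siRNA. Its ratio of 2.76 per total counts has a 95% exact binomial interval of 0.663 to 16.2, which covers counting error only, and it too was below the filter.

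Among the kinases, Cdk6 fell, Cdk2 fell on thin counts, and Cdk4 did not pass the test. Cdk4 (chromosome 10, 127063534 to 127067920, plus strand) had 646, 638 and 629.6 CPM after Crebl2 siRNA, against 594, 623 and 609.6 CPM after Luc siRNA. The groups did not overlap, yet the log2 fold change was 0.07 (SE 0.0450, edgeR adjusted p = 0.261). It was called only when library size alone set the scaling (0.12, edgeR adjusted p = 0.0437). Its neighbour Tspan31, which lies opposite the Cdk4 row, fell by 0.26 on the log2 scale (edgeR adjusted p = 0.000383).

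Cdk6, on chromosome 5 (3341485 to 3531008, plus strand), had 119, 139 and 129 CPM after Crebl2 siRNA, against 171, 159.9 and 159 CPM after Luc siRNA. Crebl2 siRNA replicate 1 was the lowest, and the highest Crebl2 siRNA library stayed below the lowest Luc siRNA library. Means were 129 ± 10.1 CPM after Crebl2 siRNA and 163 ± 7 CPM after Luc siRNA (SD, n = 3 each). The log2 fold change was -0.34 with an SE of 0.0597 (edgeR adjusted p = 0.000263). Cdk2 (chromosome 10, 128697939 to 128705031, minus strand) had 79, 59 and 81 counts after Crebl2 siRNA, against 99, 105 and 96 counts after Luc siRNA. Its log2 fold change was -0.45 (SE 0.155, edgeR adjusted p = 0.0296). The lowest value was that of Crebl2 siRNA replicate 2, the library with the low mitochondrial share, and without it the log2 fold change was -0.32 and no longer called (edgeR adjusted p = 0.159). The call was also lost without Luc siRNA replicate 2 or 3 (edgeR adjusted p = 0.0937 and 0.0604) and with DESeq2 (adjusted p = 0.0692).

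Of the Kip inhibitors, Cdkn1b fell and Cdkn1c was not seen. Cdkn1b had 11.6, 14.4 and 13.99 CPM after Crebl2 siRNA, against 20.6, 18.3 and 17.6 CPM after Luc siRNA. The groups did not overlap, and Crebl2 siRNA replicate 1 was the lowest library. The mean was 13.4 ± 1.51 CPM after Crebl2 siRNA and 18.8 ± 1.58 CPM after Luc siRNA (SD, n = 3 each). The log2 fold change was -0.50 with an SE of 0.0954 (edgeR adjusted p = 0.00059), or 70.9% of the Luc siRNA level. This was the lowest log2 fold change of the 7 members, and 9.17% of tested genes lay below it. Cdkn1c, an imprinted gene on chromosome 7 (143458339 to 143461050, minus strand), had 0 counts in all 6 libraries, which allows up to 0.0365 CPM after Crebl2 siRNA and 0.0353 CPM after Luc siRNA (3 counts over each group's 3 libraries). With 54 and 41 own bases in its rows, this does not show that the gene was silent. For each of Ccnd1, Ccne1, Cdk4, Cdk6, Cdk2 and Cdkn1b alone, p was 0.1 in the two-sided exact permutation test of log2 CPM, and no smaller p can be had from 3 against 3.

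Levels of different members were compared per kilobase of own bases, on the scale of CPM per kilobase. Cdk4 had 914 ± 12 after Crebl2 siRNA and 872 ± 21 after Luc siRNA, and Ccnd1 had 470 ± 13.7 and 619 ± 8.66 in the same order. Ccne1 had 49.8 ± 0.943 after Crebl2 siRNA and 30.7 ± 1.54 after Luc siRNA. The long form of Cdk6 had 14.2 ± 1.11 after Crebl2 siRNA and 18.0 ± 0.773 after Luc siRNA, and that of Cdkn1b 6.19 ± 0.698 and 8.72 ± 0.734 (SD, n = 3 each). On this scale the order of these 5 was the same in both groups, each step larger than the SDs. Ccnd2 was last at 0.00905 after Crebl2 siRNA and 0.00452 after Luc siRNA. Own bases here are those free of other deposited rows on either strand. Against rows of the same strand alone they would be 1339 for Cdk4 and 3740 for Ccnd1. The strand setting is not given, so the order of Cdk4 and Ccnd1 is not settled. Reads that cross from own into shared bases may go uncounted, so levels of genes with own bases in short stretches may be too low.

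Counts of members within the same library restate the differences above on a scale that needs no scaling between libraries. There were 71.6, 73.7 and 72.4 Ccne1 counts per 1000 Ccnd1 counts after Crebl2 siRNA, against 36.4, 32.2 and 33.4 after Luc siRNA, a 2.13-fold difference in the means. The ratio of Cdkn1b to Ccne1 was 114, 145 and 143 per 1000 after Crebl2 siRNA, against 317, 309 and 291 after Luc siRNA. Cdk6 counts per 1000 Cdk4 counts were 184, 218 and 204 after Crebl2 siRNA, against 288, 256 and 260.0 after Luc siRNA. The groups did not overlap in any of the 3 ratios, which follows from the members' own values. Since each counts own bases of different number, they compare groups and not the 2 genes.

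A 7-base word, GAAATGT, known from earlier work on these counts to be common in the 3′ untranslated regions of lowered genes, was searched in the main row of each gene, because a transfected siRNA can also lower mRNAs that pair with its seed. It occurred in 3 of the 4 lowered members, Ccnd1, Cdk6 and Cdkn1b, and not in Cdk2, Ccne1, Cdk4 or Ccnd3. The untested Ccnd2, with 5173 bases of 3′ untranslated region, did not hold it either. The sites follow with the word in capitals, from the GENCODE M21 transcripts.
Ccnd1: ttttaggttgaGAAATGTactctgctttg
Cdk6 site 1: taatgtctgagGAAATGTcttttcctctc
Cdk6 site 2: aagccctatatGAAATGTctcccactcaa
Cdk6 site 3: tcttagactagGAAATGTttaaaggttaa
Cdkn1b: tgtgacaatcaGAAATGTctcttagacat

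The word was present in 29.2% of the 2180 lowered genes that could be searched, 11.9% of the 1890 raised and 16.5% of the 5784 not called. Of all 9854 genes searched, 18.4% held it. Long regions hold any word more often: the 3′ untranslated regions are 2676 bases in Ccnd1, 10217 in Cdk6 and 3439 in Cdkn1b, against 1162 in Cdk2 and 531 in Ccne1. Among genes with at least 2500 such bases the word was present in 55.6% of 558 lowered, 30.8% of 367 raised and 42.4% of 1082 genes not called. The share was 43.9% over all 2007 searched genes of that length. Since the word was known from these same counts, its shares are no independent evidence. The siRNA sequences are not given in the sources used here, and the part of this word in the lower counts of Ccnd1, Cdk6 and Cdkn1b was not tested.

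Other genes of the G1 pathway were taken from lists set by function. Of 78 such genes 62 were tested, 22 rose and 10 fell, with a median log2 fold change of 0.08, against 0.005 over all genes. The 10 became 5 without Crebl2 siRNA replicate 2 or without Luc siRNA replicate 3, and 6 without Luc siRNA replicate 2. Among all genes tested 18.8% were called as raised and 20.1% as lowered, and the counts in each list are to be read against these shares. Among 5 other CDK inhibitors 3 fell and 0 rose. Cdkn2c (p18, an inhibitor of CDK4 and CDK6) had 25.1 ± 0.839 CPM after Crebl2 siRNA and 41.6 ± 2.47 CPM after Luc siRNA (log2 fold change -0.73, SE 0.0673, edgeR adjusted p = 3.60e-07). Cdkn2b (p15) fell by 0.25 and Cdkn2d (p19) by 0.21 on the log2 scale, the second with groups that overlapped and with no call without Crebl2 siRNA replicate 2 (edgeR adjusted p = 0.113) or 3 or Luc siRNA replicate 1 or 3. The p53 target Cdkn1a (p21) had 639.9 ± 24.6 CPM after Crebl2 siRNA and 606 ± 12.2 CPM after Luc siRNA and did not pass the test (0.08, edgeR adjusted p = 0.202).

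Downstream of the cyclins, 5 of 9 tested pocket protein, E2F and DP genes rose and 1 fell. E2f2, an activating E2F, had 18.0 ± 0.752 CPM after Crebl2 siRNA and 8.75 ± 0.465 CPM after Luc siRNA (SD, n = 3 each), and rose by 1.04 on the log2 scale (edgeR adjusted p = 1.09e-07). The retinoblastoma gene Rb1 rose by 0.65, its relative Rbl1 by 0.36 and the repressor E2f7 by 0.37, and the partner Tfdp2 fell by 0.27. Of 15 E2F targets of S phase entry 11 rose and 0 fell, with a median of 0.39. The smallest p belonged to Rrm2 (0.62) and Rrm1 (0.44), subunits of ribonucleotide reductase, the replication clamp Pcna (0.43) and the thymidine kinase Tk1 (0.57). The earlier results on these counts had already shown replication genes raised, so this list is no independent evidence.

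Regulators of CDK activity and of protein turnover held calls in both directions. In the list of CDK activation and inhibition 1 of 10 genes rose, Ccna2 (cyclin A2, log2 fold change 0.63, edgeR adjusted p = 7.13e-06), and 1 fell, Mnat1 of the CDK-activating kinase (-0.22, with overlapping groups). Of 10 tested turnover genes 3 rose and 1 fell. Fbxw7, the F-box protein that marks cyclin E for destruction, had 5.48 ± 0.784 CPM after Crebl2 siRNA and 3.36 ± 0.158 CPM after Luc siRNA (0.70, edgeR adjusted p = 0.000671). The cyclin D ligase gene Fbxo4 rose by 0.20 and the anaphase-promoting complex activator Fzr1 by 0.18, and the scaffold Cul1 fell by 0.14. The calls of Mnat1, Fbxo4, Fzr1 and Cul1, unlike those of Ccna2 and Fbxw7, were each lost without Crebl2 siRNA replicate 2 (edgeR adjusted p = 0.183, 0.121, 0.07 and 0.0754), and without Luc siRNA replicate 2 or 3 as well. Those of Mnat1, Fzr1 and Cul1 were also lost without Crebl2 siRNA replicate 1 or Luc siRNA replicate 1. That of Fbxo4 was also lost without Crebl2 siRNA replicate 3. The value for Skp2, which marks p27 for destruction, was 0.02 and was not called (edgeR adjusted p = 0.886).

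Among regulators of D cyclin and p27 transcription 1 of 10 tested genes rose and 3 fell. Fos had 7.81 ± 0.421 CPM after Crebl2 siRNA and 14.2 ± 1.63 CPM after Luc siRNA (log2 fold change -0.86, edgeR adjusted p = 5.70e-06). The forkhead genes Foxo4 and Foxo3, known as activators of Cdkn1b, fell by 0.28 and 0.14, and the AP-1 gene Fosl1 rose by 0.34. Foxo1, a forkhead gene of the same list, had a log2 fold change of 0.11 and was not called (edgeR adjusted p = 0.172). It was called as raised without Crebl2 siRNA replicate 1 (0.17, edgeR adjusted p = 0.0319). The call of Foxo3 was lost without Crebl2 siRNA replicate 2 (edgeR adjusted p = 0.0972) or 1 or Luc siRNA replicate 2 or 3. Myc had 32 counts after Crebl2 siRNA and 39 after Luc siRNA on 85 own bases, and Creb1 a log2 fold change of -0.09 that was not called. Without Crebl2 siRNA replicate 3 Creb1 was called as lowered (-0.175, edgeR adjusted p = 0.0484). Of the 9 imprinted-domain genes near Cdkn1c, 3 were tested. Kcnq1ot1, the antisense RNA of that domain, had 11.4, 33.7 and 14.6 CPM after Crebl2 siRNA, against 14.7, 9.03 and 9.7 CPM after Luc siRNA. The groups overlapped, and its call as raised (log2 fold change 0.84, edgeR adjusted p = 0.0286) rested on Crebl2 siRNA replicate 2: without that library the value was 0.23 (edgeR adjusted p = 0.339). It was also not called without Luc siRNA replicate 2 or 3 (0.70 and 0.74). Cd81 fell by 0.13, a call lost without Crebl2 siRNA replicate 2 (edgeR adjusted p = 0.147) or 3 or Luc siRNA replicate 2 or 3. Tssc4 had a log2 fold change of -0.80 that was not called.

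**Figure D3:**
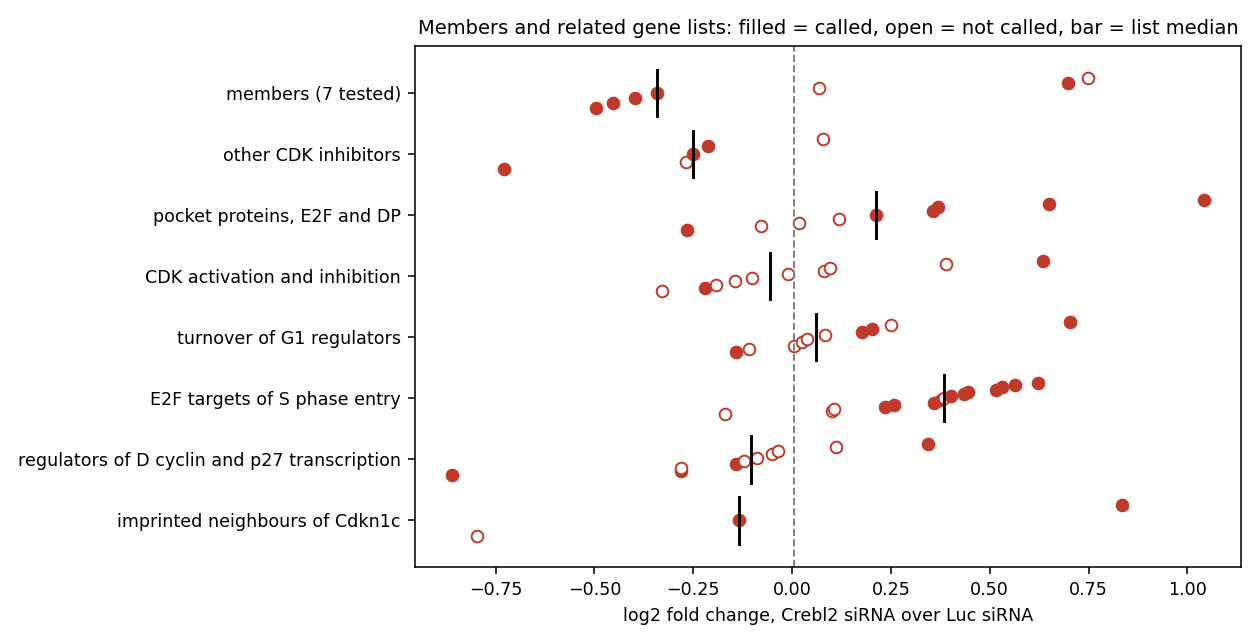
Log2 fold change of Crebl2 siRNA over Luc siRNA (x axis) for the tested genes of the members and of each related list (rows), filled where called at an edgeR adjusted p under 0.05 and open where not; vertical bars are list medians and the dashed line is the median of all genes tested, 0.005. The members split between 4 filled points at or below -0.34 and Ccne1 at 0.70, and 11 of 15 E2F targets are filled to the right of the line.

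Cdkn1b is a near neighbour of Crebl2 itself. Its start (chromosome 6, 134920401 to 134925513, plus strand) lies 61.5 kilobases after the end of Crebl2. Between Crebl2 and Cdkn1b lie Gpr19, the sense-intronic gene Gm44366 and the antisense gene 2810454H06Rik. The window from 250 kilobases before Crebl2 to 250 after Cdkn1b was looked at after the values were known. Of the 10 tested genes in it 4 fell and 1 rose, Crebl2 and Cdkn1b included, where 38.9% of all tested genes were called. The phosphatase gene Dusp16 fell by 0.32 (edgeR adjusted p = 0.000125) and the receptor gene Gprc5a by 0.57 (edgeR adjusted p = 1.29e-07). 2810454H06Rik rose by 0.67 (edgeR adjusted p = 0.0442) on 108 counts after Crebl2 siRNA and 68 after Luc siRNA, a call lost without any 1 library other than Crebl2 siRNA replicate 1 (0.50 to 0.69). It overlaps Gpr19, which had a log2 fold change of 0.67 on 75 and 47 counts and was not called. Without Crebl2 siRNA replicate 3 Gpr19 was called as raised (0.858, edgeR adjusted p = 0.0417). Ddx47, with 29765 counts after Crebl2 siRNA and 28217 after Luc siRNA, had a log2 fold change of 0.08 and was not called.

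**Figure D4:**
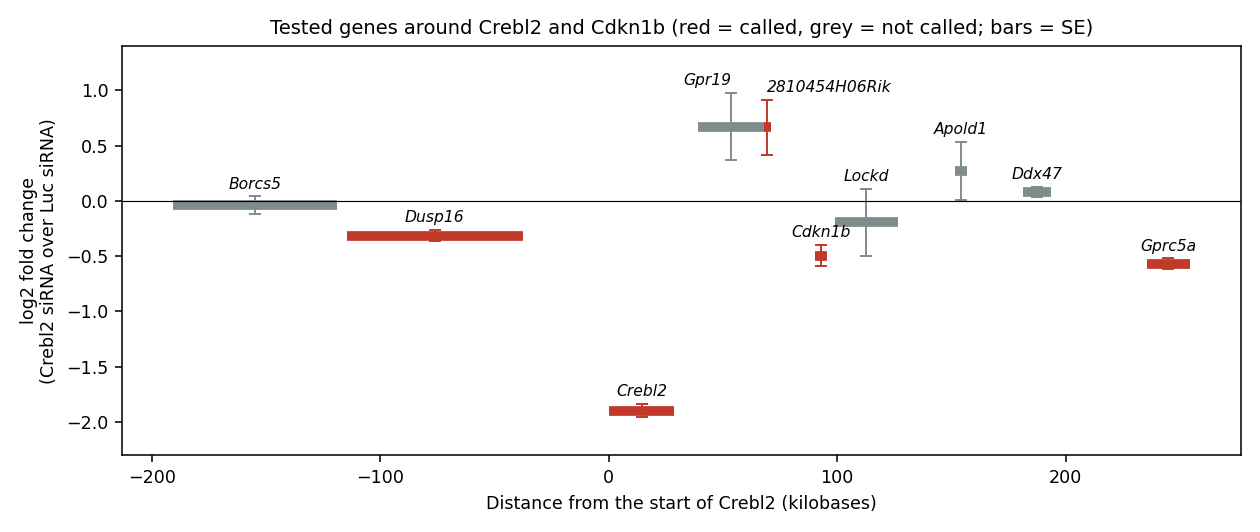
Tested genes around Crebl2 and Cdkn1b by distance from the start of Crebl2 in kilobases (x axis) and log2 fold change of Crebl2 siRNA over Luc siRNA with SE (y axis), red where called. Crebl2 is at -1.90 and Cdkn1b at -0.50, with genes between and beyond them on either side of 0.

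The genes whose pattern over the 6 libraries was most like that of the member with the smallest p in each direction were found by Euclidean distance of mean-centred log2 CPM, among 6224 protein-coding genes with a mean of at least 10 CPM. Nearest to Ccne1 were the aldehyde dehydrogenase gene Aldh1a7 (distance 0.0564), the phospholipid flippase gene Atp10a (0.0588) and the glutathione reductase gene Gsr (0.0742), with log2 fold changes of 0.67, 0.72 and 0.72. Nearest to Ccnd1 were the adhesion gene Esam (0.0303), the aspartate transaminase gene Got1 (0.0457) and the kinase gene Stk24 (0.0492), each with a log2 fold change of -0.40.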

How the data were processed

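RNA-seq counts from 3 Crebl2 siRNA and 3 Luc siRNA libraries were used. The files deposited by the authors hold whole-number, unnormalised counts for 58611 Ensembl transcripts. A stranded total RNA kit was used, per the labels. The submitters' processing notes list Trim Galore, TopHat, HTSeq, mm9 and GRCm38 with no role. Not given in the sources used here are versions, annotation and the strand setting. Row identifiers matched in 58264 cases to GENCODE M21 (GRCm38), 53484 with the same version, which excludes both Cdk2 rows. Counts were summed per gene and tested with edgeR 4.0.16 (R 4.3.3; quasi-likelihood test, TMM, filterByExpr, two-sided, Benjamini-Hochberg), after a run on simulated data. SE was derived from the fold change and its statistic. DESeq2 1.42.0, limma 3.58.1 (voom), other scalings, no filter, transcript rows, a replicate block and each library left out were the alternatives. Log2 CPM used a prior count of 2. Members and lists were chosen with earlier results of these data known. Of each list, up to 4 called genes per direction with the smallest p are named, or the 1 with the smallest p. Cdkn1a, Skp2, Creb1, Myc, Foxo1 and Tssc4 were named outside that rule, after their values were seen, as were the genes near Crebl2. 1 marker gene is not reported here. Groups were taken from the sample titles.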

Additional observations from a re-analysis of the deposited data

How the results depend on the processing

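Under 13 alternatives Ccnd1, Ccne1, Cdk6 and Cdkn1b kept their direction and their call in each, with log2 fold changes of -0.42 to -0.35, 0.67 to 0.75, -0.39 to -0.28 and -0.55 to -0.40. Ccnd3 (0.39 to 1.07, without a value when transcript rows were tested singly) was never called. Cdk2 kept its direction but lost its call with DESeq2 (-0.45) and in 3 of the runs that each left out 1 library, which ran from -0.54 to -0.32. With library size alone, Cdk4 was called (0.12), 2 members were raised, and 5 of the genes in the pathway lists were lowered, against 10. That last count was 5 to 12 when 1 library was left out. No shared deviation was seen between libraries of the same replicate number: same-numbered deviations correlated at -0.13, -0.04 and -0.08. The labels do not say whether the numbers mark a shared culture or day. With the replicate block 6 pathway genes were lowered, 20 raised and 3983 genes changed, and the members' calls were unchanged. Genes changed ran from 3639 to 4686 over all 13. Ccnd2, Ccne2 and Cdkn1c were below the filter on low counts, and without it Ccnd2 and Ccne2 had log2 fold changes of 0.88 and 1.31 (edgeR adjusted p = 0.713 and 0.491).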
